A study of Homo sapiens with 8 samples.

Results

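The 8 genes described here encode the proteins through which ACBI-1 acts, namely its 3 targets and the 5 subunits of the ubiquitin ligase it recruits. They were chosen by symbol from 63677 genes: SMARCA2 (ENSG00000080503), SMARCA4 (ENSG00000127616) and PBRM1 (ENSG00000163939) as targets, and VHL (ENSG00000134086), CUL2 (ENSG00000108094), RBX1 (ENSG00000100387), TCEB1 (ENSG00000154582) and TCEB2 (ENSG00000103363) as ligase subunits. All 8 were found. TCEB1 and TCEB2 are the older symbols of elongin C (ELOC) and elongin B (ELOB).

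RNA sequencing had been done on MOLT-4 and DND-41, established human lines of T-cell acute lymphoblastic leukaemia. The groups were MOLT-4 given ACBI-1, MOLT-4 given the solvent DMSO, DND-41 labelled ACBI-1 and DND-41 labelled DMSO, with 2 libraries in each. ACBI-1 was given at 100 nM and all RNA was taken at 24 h. The labels state no genetic change or second agent in any group, and do not say whether libraries came from separate cultures, so p-values measure only the spread between libraries, which may be technical.

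ACBI-1 is a PROTAC, a molecule with one end that binds the bromodomain of SMARCA2, SMARCA4 or PBRM1 and another that binds VHL. VHL is the substrate receptor of a cullin-RING ligase: elongins B and C tie it to the scaffold CUL2, and CUL2 carries RBX1, the RING protein that docks the ubiquitin-loaded E2 enzyme. In normal cells this ligase marks the hypoxia-inducible factors HIF1A and EPAS1 for the proteasome when oxygen is present. SMARCA4 (BRG1) and SMARCA2 (BRM) are alternative ATPases of the BAF chromatin remodelling complexes, and PBRM1 is the multi-bromodomain subunit that marks the PBAF form. ACBI-1 removes proteins, which were not measured, so a transcript level of a target neither shows nor checks its degradation.

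The promoter windows of 4 of these genes are shown because the comparisons below turn on their levels. RefSeq windows (build GRCh38.p14, from 250 bases before to 50 after the start of transcription) were at hand for 6 of the 8 genes, and those of CUL2 and RBX1 are not printed. Each is given 5′ to 3′ on the strand of its gene, with capitals at every match on either strand to CACGTG (the E-box that MYC and MAX bind), CCGGAA (a core bound by ETS factors), GGGCGG (the GC box bound by SP1) or TGGGAA (a core bound by RBPJ, the DNA-binding partner of NOTCH1).
SMARCA2 (chr9:2015097-2015396, plus strand): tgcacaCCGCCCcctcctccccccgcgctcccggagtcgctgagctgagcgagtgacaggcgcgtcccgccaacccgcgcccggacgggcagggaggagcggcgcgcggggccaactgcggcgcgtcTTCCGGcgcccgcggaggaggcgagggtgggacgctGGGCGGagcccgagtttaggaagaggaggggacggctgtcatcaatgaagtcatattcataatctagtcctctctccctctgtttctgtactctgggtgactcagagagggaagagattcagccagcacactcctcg
SMARCA4 (chr19:10960780-10961079, plus strand): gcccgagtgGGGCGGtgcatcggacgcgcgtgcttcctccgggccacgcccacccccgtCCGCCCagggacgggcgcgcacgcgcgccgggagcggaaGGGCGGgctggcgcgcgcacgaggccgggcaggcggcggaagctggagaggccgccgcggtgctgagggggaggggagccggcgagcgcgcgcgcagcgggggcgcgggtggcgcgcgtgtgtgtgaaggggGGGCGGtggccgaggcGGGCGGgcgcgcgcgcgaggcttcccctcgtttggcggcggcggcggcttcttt
PBRM1 (chr3:52685864-52686163, minus strand): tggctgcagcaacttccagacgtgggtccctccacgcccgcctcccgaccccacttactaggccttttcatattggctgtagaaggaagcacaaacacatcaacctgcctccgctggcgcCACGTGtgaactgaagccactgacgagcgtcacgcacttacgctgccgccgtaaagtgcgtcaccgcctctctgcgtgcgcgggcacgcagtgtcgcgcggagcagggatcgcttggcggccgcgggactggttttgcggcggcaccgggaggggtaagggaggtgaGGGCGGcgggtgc
TCEB2 (chr16:2777231-2777530, minus strand): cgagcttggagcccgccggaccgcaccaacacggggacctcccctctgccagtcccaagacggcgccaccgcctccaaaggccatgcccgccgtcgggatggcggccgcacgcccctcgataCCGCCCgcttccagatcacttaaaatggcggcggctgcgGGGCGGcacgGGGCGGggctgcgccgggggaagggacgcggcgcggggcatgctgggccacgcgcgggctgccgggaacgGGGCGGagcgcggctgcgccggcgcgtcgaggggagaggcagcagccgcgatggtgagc

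No 2 matches overlapped in these windows. The SMARCA2 window held 1 ETS core, starting 123 bases before the start site, and 2 GC boxes. The SMARCA4 window held 5 GC boxes and the TCEB2 window 4, while PBRM1 had 1 E-box, 130 bases before its start site, and 1 GC box. TGGGAA was in none of the 6 windows. Among 35116 RefSeq windows of 300 bases, 45% held a GC box, 24% TGGGAA, 17.2% the ETS core and 7.26% the E-box, so a match is common and is given as a description only. The windows were GC-rich, with 81.3% G and C in SMARCA4, 76.3% in TCEB2, 66.7% in SMARCA2 and 65.3% in PBRM1. RefSeq lists 4 starts for SMARCA2 and 2 each for SMARCA4 and PBRM1, and the counts do not show which start was used.

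Total counts per library ran from 21308737 to 22067644. The 8 genes had 546 to 16254 counts in a library. All 10 T-lineage markers examined reached 1 CPM (the usual CPM scale, after TMM scaling) in MOLT-4 and 9 of 10 in DND-41, where PTCRA was at or near 0. Of the B-cell markers MS4A1 and CD22 were at 0 throughout, but CD79A had 177 to 734 CPM in DND-41. Myeloid and erythroid markers stayed under 1 CPM summed over each list. The collagen genes COL1A1 and COL3A1 stood at 14.4 and 9.56 CPM in MOLT-4 ACBI-1 replicate 2, against 0.511 and 0.325 CPM in replicate 1. All 6 members called in MOLT-4 below kept their call without that library. Summed T-lineage markers were 4298 to 4477 CPM in MOLT-4 with ACBI-1 and 5254 to 5256 CPM with DMSO, and their part in the members' changes was not tested.

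The DND-41 libraries did not group by their treatment labels. Counts of DND-41 libraries with the same replicate number differed by 5.53 and 6.001 times counting noise (chi-square over its degrees of freedom), and all other DND-41 pairs by 70.2 to 84.1. In MOLT-4 the ACBI-1 pair differed by 2.85 and the DMSO pair by 1.56, against 55.7 to 57.0 between treatments. The authors' deposited DND-41 table matched the libraries numbered 2 over those numbered 1 within 0.1 log2 in 100% of 5113 well-counted genes, and matched the labelled treatments in 22.2%. Which of them holds the treatments as given could not be settled, so both readings of DND-41 are given and its libraries are called by their labels.

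**Figure D1:**
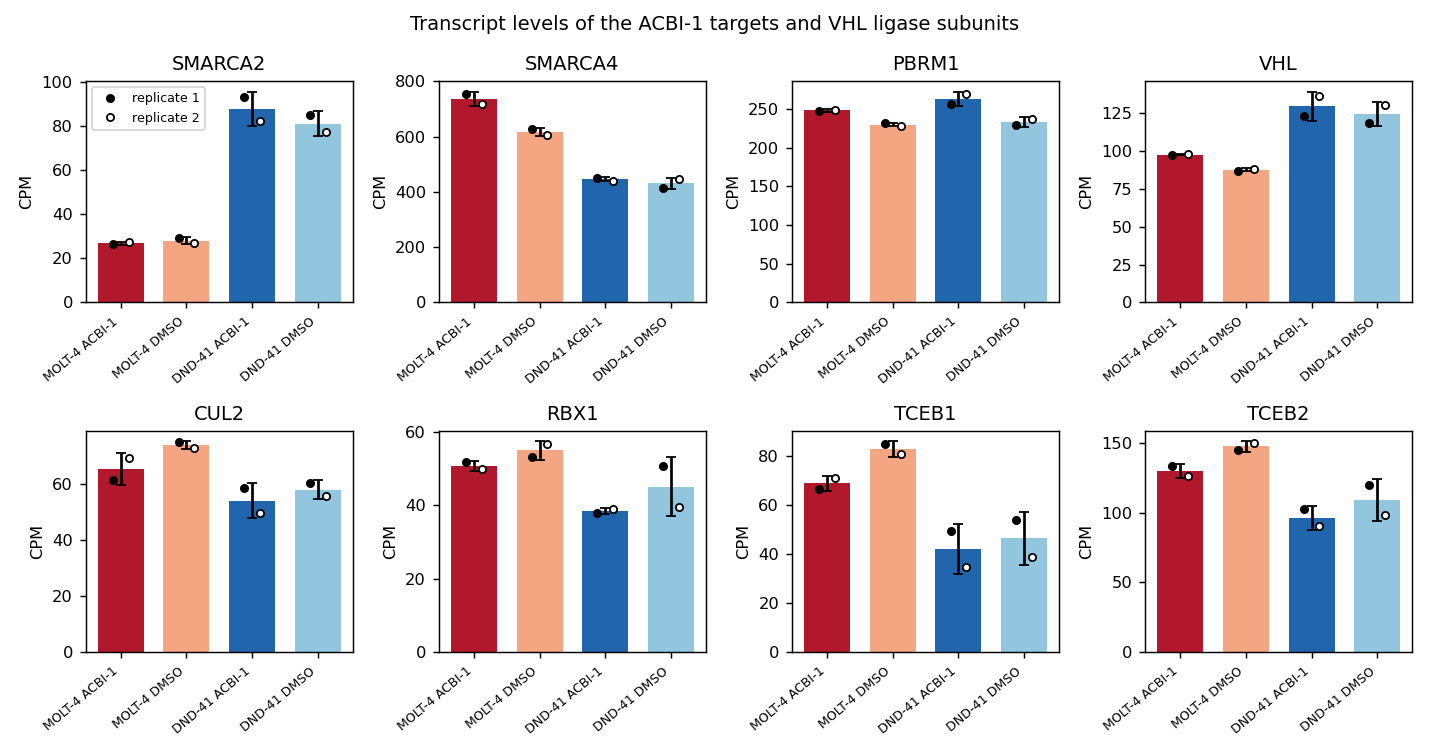
CPM (TMM-scaled, y axis) of each of the 8 genes in the 4 groups (x axis), with DND-41 groups as labelled. Bars are means, error bars SD (n = 2), filled and open points the libraries numbered 1 and 2. SMARCA2 differs between lines far more than between treatments, and TCEB1 in DND-41 is lower in both libraries numbered 2.

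In MOLT-4, transcripts of the ATPase SMARCA4 rose with ACBI-1, while those of SMARCA2 did not pass the test. By edgeR's quasi-likelihood test (Benjamini-Hochberg adjusted p under 0.05), 6 of the 8 genes changed, 3 higher and 3 lower. Across all 14618 genes tested 58.4% passed, 28.2% higher and 30.2% lower, so the count of members is close to the background. All 6 changes were small, none reaching a log2 change of 0.3 in either direction. In bulk RNA, fewer cells with a transcript and less of it per cell cannot be told apart.

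SMARCA4 had 755 and 718 CPM in MOLT-4 with ACBI-1, against 627 and 606 CPM with DMSO. Both ACBI-1 libraries lay above both DMSO libraries, a 1.197-fold difference (log2 fold change 0.26, SE 0.0355, edgeR adjusted p = 3.09e-08). SMARCA2 had 26.35 and 27.2 CPM with ACBI-1, against 29.1 and 27.1 CPM with DMSO. These overlapped, and the log2 fold change of -0.06 (95% interval -0.21 to 0.08) did not pass the test (edgeR adjusted p = 0.439). PBRM1 had 247 and 249 CPM with ACBI-1, against 231 and 228 CPM with DMSO. The groups did not overlap, and PBRM1 rose by 0.11 on the log2 scale (SE 0.0364, edgeR adjusted p = 0.00736), though not without DMSO replicate 1 (0.12, adjusted p = 0.0701) or replicate 2 (0.10, adjusted p = 0.159).

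Within the ligase VHL rose, while CUL2 and both elongins fell and RBX1 did not pass. VHL, the substrate receptor, had 97.7 and 97.9 CPM in MOLT-4 with ACBI-1, against 87.0 and 88.4 CPM with DMSO. The groups lay apart, with VHL higher by 0.16 on the log2 scale (SE 0.0447, edgeR adjusted p = 0.00221; 0.15 and 0.0629 without DMSO replicate 1). CUL2, the scaffold, had 61.4 and 69.3 CPM with ACBI-1, against 74.9 and 73.1 CPM with DMSO. CUL2 fell by 0.18 on the log2 scale (SE 0.0527, edgeR adjusted p = 0.00382). ACBI-1 replicate 1 held the lowest value, and without it the log2 change of CUL2 was -0.09 (adjusted p = 0.149), while without DMSO replicate 1 it was -0.16 (adjusted p = 0.0628). RBX1, the RING subunit, had 51.8 and 49.9 CPM with ACBI-1, against 53.2 and 56.8 CPM with DMSO. The RBX1 groups did not overlap, but the log2 fold change of -0.11 (95% interval -0.22 to 0.00078) did not pass (edgeR adjusted p = 0.0828).

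Both elongins were lower. TCEB1, the elongin that contacts VHL and CUL2 directly, had 66.65 and 70.9 CPM in MOLT-4 with ACBI-1, against 85.0 and 80.6 CPM with DMSO. Both ACBI-1 libraries lay below both DMSO libraries, and TCEB1 fell by 0.27 on the log2 scale (SE 0.0494, edgeR adjusted p = 1.18e-05). TCEB2, its dimer partner, had 133 and 126 CPM with ACBI-1, against 145 and 150.2 CPM with DMSO. TCEB2 fell by 0.18 on the log2 scale without overlap (SE 0.0413, edgeR adjusted p = 0.000189). The ratio of VHL to TCEB1 counts was 1.47 and 1.38 in the ACBI-1 libraries and 1.02 and 1.10 in the DMSO libraries.

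These directions are relative to TMM scaling. Scaling by total counts moved the median log2 change of all MOLT-4 genes by 0.119: SMARCA2 (0.05) and RBX1 (0.01) then turned positive without passing, CUL2 (-0.06, adjusted p = 0.357) and TCEB2 (-0.06, adjusted p = 0.175) lost their call, and SMARCA4 (0.38), PBRM1 (0.23), VHL (0.28) and TCEB1 (-0.15) kept theirs. With the spread shared over the libraries of both lines, 0 of the 8 genes and 544 of all genes passed (SMARCA4 0.26, edgeR adjusted p = 0.162). In the authors' deposited MOLT-4 table, 5692 of 16234 genes passed (35.1%, with 14.7% higher and 20.3% lower), among them SMARCA4 (log2 fold change 0.25, adjusted p = 1.69e-09), TCEB1 (-0.28, adjusted p = 0.00126) and TCEB2 (-0.20, adjusted p = 0.00385). PBRM1, VHL and CUL2 missed the threshold in that deposited table, with adjusted p of 0.0788, 0.0757 and 0.0613.

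Changes also moved with transcript length over all genes. Protein-coding genes were divided into 4 equal classes by total exon length. In MOLT-4 the median log2 change was -0.09 in the shortest class (up to 3354 bases) and 0.05 in the longest (over 7582 bases). SMARCA2, SMARCA4 and PBRM1 are in the longest class, TCEB2 and RBX1 in the shortest, and VHL, CUL2 and TCEB1 in the second. The part of length in the members' changes was not tested. TCEB2 also shares 190 exon bases with SRRM2 on the opposite strand, whose counts were 1087% of its own. SRRM2 changed by 0.03 on the log2 scale in MOLT-4 (edgeR adjusted p = 0.430), and the strand setting of the counting was not given in the sources used here. Processed copies of TCEB1 held at most 1.32% of its counts each, and those of TCEB2 at most 1 count each over the 8 libraries.

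**Figure D2:**
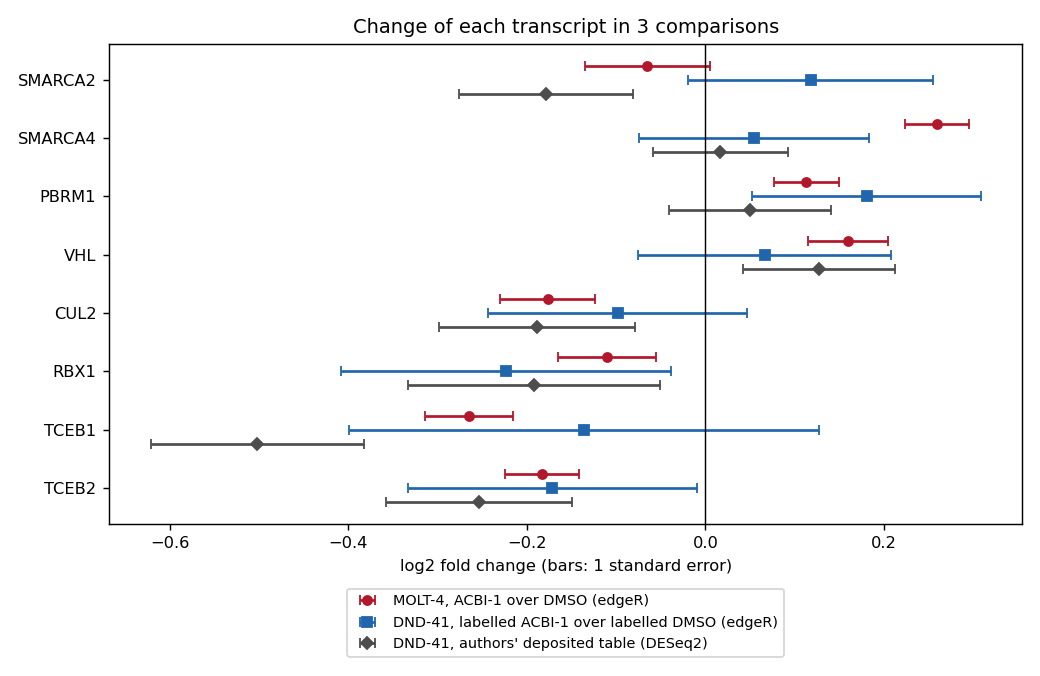
Log2 fold change (x axis) of each gene (y axis) in MOLT-4 with ACBI-1 over DMSO (circles), in DND-41 as labelled (squares) and in the authors' deposited DND-41 table (diamonds), with bars of 1 standard error. SMARCA4 is highest in MOLT-4 (0.26), and TCEB1 lowest in the deposited DND-41 table (-0.50).

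In DND-41 as labelled, with the libraries taken as unpaired, none of the 8 genes passed. EdgeR called 0 of 14602 genes (0%), with 37 at an unadjusted p under 0.05, and DESeq2 called 0, with 7 at an unadjusted p under 0.05. SMARCA2 had 93.5 and 82.3 CPM in the libraries labelled ACBI-1, against 85.3 and 77.3 CPM in those labelled DMSO, and SMARCA4 had 450.1 and 439.8, against 416 and 445 CPM. Both overlapped, with log2 changes of 0.12 (95% interval -0.26 to 0.49) and 0.05 (-0.30 to 0.41). PBRM1 had 256 and 269.7 CPM in the libraries labelled ACBI-1, against 229 and 237.5 CPM in those labelled DMSO. It lay higher in both, yet its log2 change of 0.18 had an interval from -0.17 to 0.53. VHL had 123 and 137 CPM in the libraries labelled ACBI-1, against 119 and 130.4 CPM in those labelled DMSO, which overlapped.

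RBX1 had 37.9 and 39.1 CPM in the DND-41 libraries labelled ACBI-1, against 50.9 and 39.5 CPM in those labelled DMSO. They did not overlap, but DMSO replicate 2 lay just above the ACBI-1 pair, and the log2 change of -0.22 had an interval from -0.73 to 0.28. CUL2 had 58.5 and 49.6 CPM in the libraries labelled ACBI-1, against 60.4 and 55.8 CPM in those labelled DMSO. CUL2, TCEB1 and TCEB2 overlapped between the labels, with log2 changes of -0.10, -0.14 and -0.17. The spread of TCEB1 was the widest of the 8, and its interval ran from -0.85 to 0.58. The MOLT-4 change of each of the 8 genes lay inside its DND-41 interval, so with libraries taken as unpaired a change of that size was not detectable. With same-numbered libraries fitted as blocks, the standard error of SMARCA4 was 0.0431 in place of 0.129. PBRM1, RBX1 and TCEB2 then passed, with 1349 of 14602 genes.

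By replicate number, both elongins were lower in the DND-41 libraries numbered 2. TCEB1 had 34.8 and 38.7 CPM in the libraries numbered 2 (labelled ACBI-1 and DMSO), against 49.3 and 53.9 CPM in those numbered 1. Both number 2 libraries lay below both number 1 libraries, and the authors' deposited DND-41 table gives TCEB1 a log2 fold change of -0.50 (SE 0.119, DESeq2 adjusted p = 0.000151). TCEB2 had 90.3 and 98.2 CPM in the libraries numbered 2, against 102.6 and 119.8 CPM in those numbered 1, and the authors' deposited table gives -0.25 (SE 0.104, DESeq2 adjusted p = 0.0411). These were the only members past the threshold, 2 of 8, in a deposited table where 36.8% of 14883 genes passed and 21.6% passed as lower. The other members had deposited values of -0.18 for SMARCA2 (adjusted p = 0.144), 0.02 for SMARCA4 (0.897), 0.05 for PBRM1 (0.724), 0.13 for VHL (0.256), -0.19 for CUL2 (0.178) and -0.19 for RBX1 (0.306). By CPM, SMARCA2 and CUL2 also lay lower in both libraries numbered 2 than in both numbered 1, and VHL lay higher. In that authors' table too the shortest genes had a lower median (-0.14) than the longest (0.01).

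The difference between the lines in their labelled treatment response was tested as the interaction in 1 edgeR fit of all 8 libraries. It was called in 63 of 16047 genes (0.393%) and in 0 of the 8 members, none of which had an unadjusted p under 0.05, and DESeq2 called 0 of the 8. SMARCA4 had a MOLT-4 change larger than the DND-41 change by 0.21 (SE 0.118, 95% interval -0.08 to 0.49, edgeR adjusted p = 0.610). From the authors' deposited tables as they stand, a z test gave SMARCA4 a difference of 0.23 with an adjusted p of 0.0870, and it called 0 of the 8 members and 6.37% of 23918 genes. With the signs of the deposited DND-41 table turned, since its direction could not be settled, the z test gave SMARCA4 a difference of 0.26 with an adjusted p of 0.00829. With signs turned it called 6389 of 23918 genes and 5 of the 8 members. Among these, TCEB1 (-0.78, z test adjusted p = 3.64e-07) and TCEB2 (-0.45, z test adjusted p = 0.000958) had smaller adjusted p than SMARCA4. By the labels, with same-numbered libraries of a line fitted as blocks, SMARCA4 passed (0.21, edgeR adjusted p = 0.00318), as did 5860 of 16047 genes. Whether the change of SMARCA4 differs between the lines thus depends on how DND-41 is read and on whether libraries are taken as paired.

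The largest differences of these genes were between the lines. Between MOLT-4 DMSO and DND-41 DMSO libraries, 5 of the 8 genes passed, 3 higher and 2 lower in MOLT-4. Of 16047 genes 39.5% passed, 20.1% higher and 19.4% lower. SMARCA2, at 29.1 and 27.1 CPM in MOLT-4 DMSO against 85.3 and 77.3 CPM in DND-41 DMSO, differed most of the members. It was 2.895-fold lower in MOLT-4 (log2 difference -1.53, SE 0.108, edgeR adjusted p = 0.000141). SMARCA4 went the other way, with 627 and 606 CPM in MOLT-4 DMSO against 416 and 445 CPM in DND-41 DMSO (log2 difference 0.52, SE 0.0839, edgeR adjusted p = 0.00395). PBRM1 overlapped, at 231 and 228 CPM in MOLT-4 DMSO and 229 and 237.5 CPM in DND-41 DMSO (-0.02, edgeR adjusted p = 0.844).

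Among ligase subunits, VHL had 87.0 and 88.4 CPM in MOLT-4 DMSO, against 119 and 130.4 CPM in DND-41 DMSO libraries. Both MOLT-4 values were lower (log2 difference -0.51, SE 0.0920, edgeR adjusted p = 0.00614). TCEB1 had 85.0 and 80.6 CPM in MOLT-4 DMSO, against 53.9 and 38.7 CPM in DND-41 DMSO libraries, higher in both (0.84, SE 0.209, edgeR adjusted p = 0.0203). TCEB2 had 145 and 150.2 CPM in MOLT-4 DMSO, against 119.8 and 98.2 CPM in DND-41 DMSO libraries, again without overlap (0.44, SE 0.122, edgeR adjusted p = 0.0301). CUL2 at 0.35 (adjusted p = 0.0540) and RBX1 at 0.28 (adjusted p = 0.132) did not pass. The DND-41 DMSO pair differed within itself, as said above for its numbers, and with all 4 libraries of each line 7 of the 8 members and 53.4% of all genes passed. SMARCA2 and SMARCA4 passed in all 11 alternative settings. Without MOLT-4 DMSO replicate 1, or without replicate 2, they were the only members to pass. Scaling by total counts moved the median of all genes by -0.18 here, and TCEB2 then had 0.26 (adjusted p = 0.0564). The MOLT-4 columns are marked redo in their headers with no reason stated, so line and any difference in how the tables were made cannot be told apart.

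The ratio of the ATPases within a library does not depend on library scaling. SMARCA2 made up 3.37% and 3.65% of the SMARCA2 and SMARCA4 counts in MOLT-4 with ACBI-1, and 4.43% and 4.28% with DMSO. In DND-41 it made up 17.2% and 15.8% under the ACBI-1 label, and 17.03% and 14.8% under the DMSO label. The Wilson 95% intervals, which cover counting error only, reached from 3.11% to 3.95% in the MOLT-4 ACBI-1 libraries and from 3.94% to 4.79% in the MOLT-4 DMSO libraries. All 4 MOLT-4 libraries lay below all 4 DND-41 libraries.

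**Figure D3:**
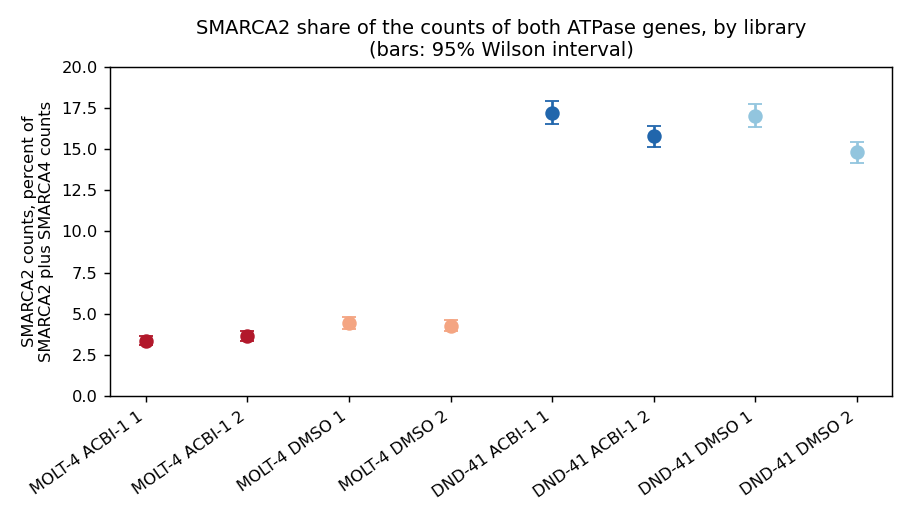
SMARCA2 counts as a percentage of SMARCA2 plus SMARCA4 counts (y axis) in each of the 8 libraries (x axis, DND-41 as labelled), with 95% Wilson intervals as bars. MOLT-4 libraries lie between 3.37% and 4.43%, DND-41 libraries between 14.8% and 17.2%.

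Levels were compared between genes only per length, as mean CPM per kb of exon (GENCODE 29 union of exons). TCEB2 was highest in all 4 groups, at 115 and 130.8 CPM per kb in MOLT-4 with ACBI-1 and DMSO and at 85.5 and 96.6 in DND-41 labelled ACBI-1 and DMSO. SMARCA2 was lowest in all 4, at 1.44 and 1.51 CPM per kb in MOLT-4 with ACBI-1 and DMSO and at 4.73 and 4.37 in DND-41 labelled ACBI-1 and DMSO. In MOLT-4 the order was TCEB2, SMARCA4, PBRM1, VHL, RBX1, TCEB1, CUL2 and SMARCA2, where only RBX1 and TCEB1 overlapped with DMSO. In DND-41 it was TCEB2, VHL, SMARCA4, PBRM1, RBX1, CUL2, TCEB1 and SMARCA2, where CUL2 and TCEB1 overlapped under both labels and SMARCA4 and PBRM1 under the ACBI-1 label.

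The order depends on the length used. By the length of the principal transcript, SMARCA4 came near TCEB2, at 127 against 131 CPM per kb in MOLT-4 with ACBI-1, where they overlapped. SMARCA2 has 18595 bases of union exons but 5867 in its principal transcript, and by the second it stood above CUL2 in DND-41, at 14.98 and 12.5 CPM per kb under the ACBI-1 label and 13.9 and 13.5 under the DMSO label, where the libraries of both genes overlapped. In MOLT-4 SMARCA2 stayed lowest by both lengths.

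**Figure D4:**
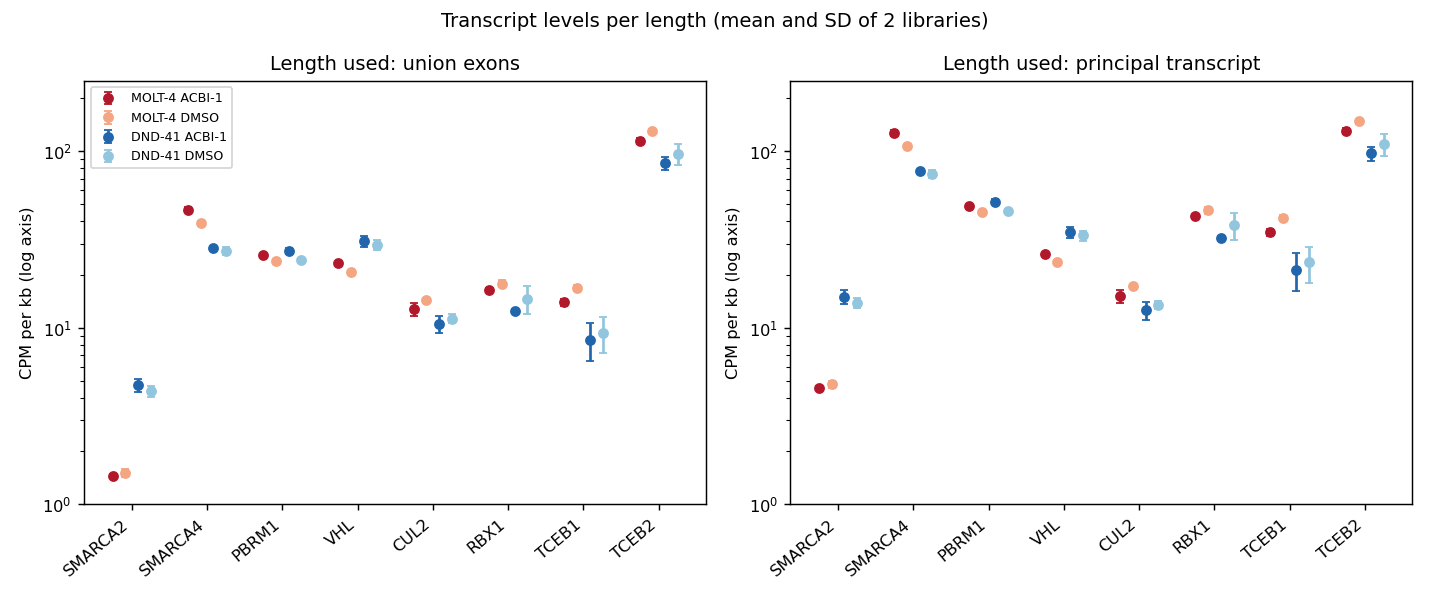
Mean CPM per kb (log axis) of the 8 genes (x axis) in the 4 groups, with SD bars (n = 2), by union exon length on the left and principal transcript length on the right. TCEB2 is highest in each group by both lengths, and SMARCA2 in MOLT-4 lowest.

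Genes whose centred log2 CPM most closely followed SMARCA2, SMARCA4, PBRM1 or VHL over the 8 libraries were found by root mean square difference. The search covered 10176 genes with a symbol that is not a clone name and a mean of at least 5 CPM. A high level in 1 line alone can bring about such a mean. For SMARCA2 the closest genes were CRYBG3 (0.0715), PTCHD3P1 (0.102) and FAM57A (0.105), where the median gene was at 0.864. CRYBG3 averaged 2.73 CPM in MOLT-4 with ACBI-1 and 2.75 with DMSO, and 10.3 and 9.23 CPM in DND-41 labelled ACBI-1 and DMSO. For SMARCA4 they were ACAP3 (0.0474), DENND1A (0.0476) and STARD9 (0.0528), for PBRM1 SREK1 (0.0268), TRIP11 (0.0317) and DNAJC13 (0.0322), and for VHL FDPS (0.0360), ERVK3-1 (0.0367) and ZNF136 (0.0373). FDPS, which makes farnesyl diphosphate for sterol synthesis, averaged 98.6 CPM in MOLT-4 with ACBI-1, 87.7 with DMSO, and 129 and 130.3 in DND-41 labelled ACBI-1 and DMSO. These likenesses describe 8 libraries of 2 lines, which share line, table and scaling.

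The related genes are given by counts, to be read against the 58.4% of all genes that passed in MOLT-4. Their changes are relative to TMM scaling, and scaling by total counts moved the median log2 change of all MOLT-4 genes by 0.119. The lists were not refitted on total counts. The shortest class of genes had a median of -0.09 in MOLT-4, and the part of length in the lists was not tested. Around the ligase, proteasome subunits, which destroy what it marks, were mostly lower in MOLT-4 with ACBI-1. Of 32 subunits 24 fell, 0 rose and 8 did not pass, with a median log2 change of -0.15, against 0.01 over all genes tested. PSMA5 averaged 86.2 ± 5.38 CPM with ACBI-1 and 149.6 ± 2.75 CPM with DMSO (SD, n = 2 each), a log2 change of -0.79, and PSMA3 135 ± 1.38 and 181 ± 5.89 CPM (-0.42). PSMC4 (-0.41) and PSMC3 (-0.35), ATPases of the cap that unfolds substrates, also fell. By the DND-41 labels 0 of the 32 passed, with a median of -0.12, where 0 of 14602 genes passed. In the authors' deposited DND-41 table, 29 of the 32 passed as lower in libraries numbered 2 and 1 as higher, with a median of -0.47. Of all 14883 genes there, 36.8% passed and 21.6% passed as lower, with a median of -0.0046. Its shortest class of genes had a median of -0.14.

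Among 23 regulators of neddylation, the modification that switches cullins on, 13 fell, 1 rose and 9 did not pass in MOLT-4, with a median of -0.12. The share that passed, 60.9%, was near that of all genes, of which 28.2% rose and 30.2% fell. DCUN1D5, which promotes NEDD8 transfer to cullins, averaged 44.6 ± 0.669 CPM with ACBI-1 and 73.8 ± 2.02 CPM with DMSO (-0.72). COPS2 (-0.26) and GPS1 (-0.24), subunits of the COP9 signalosome that removes NEDD8, also fell, and CAND2, a cullin-binding paralog of CAND1, rose (0.63). Of 10 E1 and E2 enzymes and ARIH1, 4 fell, 2 rose and 4 did not pass (median -0.04). UBE2G2 (-0.34), UBE2D3 (-0.25) and UBE2D2 (-0.17) fell and UBE2D4 (0.28) rose.

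Other proteins that use elongins B and C went both ways, with 13 higher, 9 lower and 11 not passing of 33 tested from a list of 36 (median 0.09). LRR1, a CUL2 receptor, averaged 95.1 ± 0.0655 CPM with ACBI-1 and 46.1 ± 0.502 CPM with DMSO in MOLT-4 (1.05). WSB2 (0.88) and SOCS5 (0.79), CUL5-type receptors, rose as well, and ASB1 fell (-0.86). Of 17 other cullins, adaptors and ligases used by degraders, 6 rose, 6 fell and 5 did not pass (median -0.05). CUL7 (1.204), CUL4B (0.68) and DCAF16 (0.48) rose, and DDB1, the CUL4 adaptor, fell (-0.42).

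On the HIF axis, the natural substrates of VHL and their targets, 5 of 14 tested genes (of 18 listed) rose, 6 fell and 3 did not pass in MOLT-4, with a median of -0.09. ARNT (0.66), the partner of the HIF alpha subunits, EGLN1 (0.55), the hydroxylase that lets VHL recognise them, and the HIF target BNIP3 (0.60) rose. SLC2A1, a glucose transporter and HIF target, fell (-0.48). Of the same list, EGLN2 (0.46) and HIF1AN (0.25) also rose. VEGFA (-1.53, at a mean of 1.49 CPM with DMSO), EGLN3 (-0.81), ANKRD37 (-0.55) and NDRG1 (-0.23) also fell. The alpha subunits were added for their role after their values were seen: EPAS1 had 1.07 and 1.89 CPM with ACBI-1, against 4.11 and 3.77 CPM with DMSO (log2 change -1.41, edgeR adjusted p = 1.16e-06), and HIF1A 134 and 140.0, against 148 and 140.1 CPM (-0.07, edgeR adjusted p = 0.156).

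Partners of the targets also moved both ways. Of 10 tested PBAF and ATPase module partners (of 11 listed), 4 rose, 3 fell and 3 did not pass (median -0.03). ARID2, the PBAF scaffold, averaged 147.5 ± 8.30 CPM with ACBI-1 and 105 ± 0.516 CPM with DMSO in MOLT-4 (0.50), and PHF10, another PBAF subunit, rose by 0.52. BCL7A fell (-0.59), as did ACTB (-0.39), the actin bound by the ATPase. Of 34 other bromodomain genes tested (38 listed), 15 rose, 5 fell and 14 did not pass (median 0.05), so the share that passed, 58.8%, was near that of all genes. KAT2B (1.04), PHIP (0.55), BRWD1 (0.53) and KMT2A (0.42) rose.

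**Figure D5:**
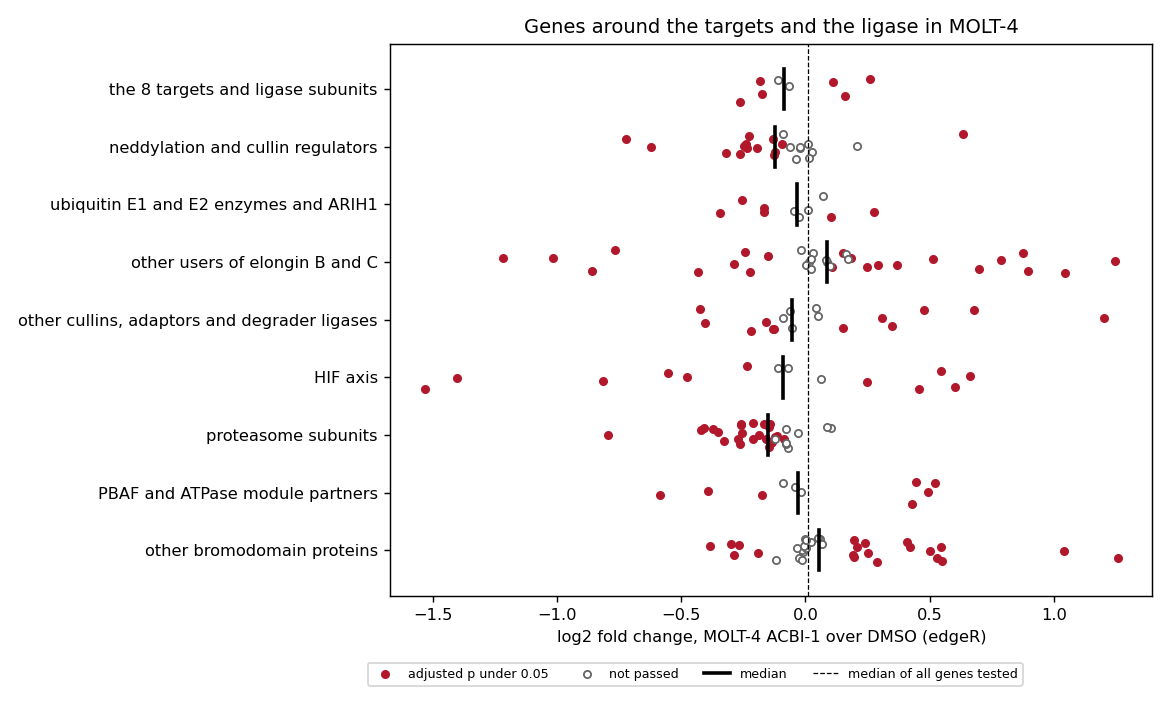
Log2 fold change in MOLT-4 with ACBI-1 over DMSO (x axis) of the 8 genes and of 8 lists of related genes (rows), each point a gene, filled where the edgeR adjusted p was under 0.05, with the list's median as a thick line and that of all genes dashed. Proteasome subunits (24 of 32 lower) and neddylation regulators (13 of 23 lower, 1 higher) lie mostly left of 0, and the other lists spread to both sides.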

How the data were processed

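Total RNA of 8 libraries from 2 cell lines was sequenced as strand-specific pairs, per the labels. The submitters' processing notes name STAR 2.5.2a, the build hg19, featureCounts and DESeq2 1.12.4, while annotation, strand setting and treatment of multi-mapping reads are not given in the sources used here. The authors deposited raw counts for 63677 Ensembl genes, 1 table per line. The authors' deposited comparison tables hold log2 fold changes with standard errors. The deposited p-value and adjusted p-value of each gene came from the authors' DESeq2 run, per the file headers. Per the file headers they further hold a Wald score. Per the file headers their baseMean is a mean normalized signal over the libraries, not used in any result.

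Each comparison was fitted on all genes with edgeR 4.0.16 (quasi-likelihood F-test, 2-sided, TMM scaling, filterByExpr) in R 4.3.3, with Benjamini-Hochberg adjustment and a threshold of 0.05. All 8 members passed the low-count filter in every comparison. Each line was fitted on its own, and the difference between lines and the interaction were fitted on all 8 libraries. DESeq2 1.42.0 was an alternative. CPM were scaled by TMM over the 8 libraries. Exon lengths came from GENCODE 29, and no hg19 coordinates are given. The z test of the deposited tables was added after seeing the data. Members and lists were chosen with earlier results of these data known. List genes named are up to 4 with the smallest adjusted p in MOLT-4, except on the HIF axis, where all genes that passed are named. The likeness measure added 0.5 CPM before logs. The fits were also run on simulated counts, drawn for each library on its own. Those counts hold no shared effect of replicate number, so they do not test the fits for it. Intervals cover counting error or the spread of 2 libraries only.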

Additional observations from a re-analysis of the deposited data

How the results depend on the processing

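Each member's result was repeated under the alternatives. In MOLT-4, 71 member results kept direction and call, 15 lost the call and 2 reversed (SMARCA2 0.0544 and RBX1 0.00892, total-count scaling). Members called were 3 to 6 when a library was left out and 0 with a spread shared by both lines (544 genes). In DND-41 as labelled, a replicate block gave 3 members (PBRM1 0.18, RBX1 -0.21, TCEB2 -0.17) and 1349 genes, and leaving out a library gave VHL -0.0277 to 0.15, CUL2 -0.21 to 0.00197 and TCEB1 -0.39 to 0.13. Same-numbered DND-41 libraries deviated together (correlation 0.909, 2 pairs only; MOLT-4 0.00287), a hint from the data and not the design, and the block changed no MOLT-4 member call.

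For the interaction, called genes were 395 with DESeq2, 5860 with the replicate block (members 1: SMARCA4 0.21, edgeR adjusted p = 0.00318), 0 to 49 without a library and 1523 by the z test of the deposited tables. With the deposited DND-41 signs turned, the z test called 6389 genes and 5 members. Reversals were, with total-count scaling, PBRM1 0.0400, CUL2 0.0317 and TCEB2 0.0937; as deposited, SMARCA2 0.10, PBRM1 0.0502, TCEB1 0.22 and TCEB2 0.0580; with signs turned, PBRM1 0.15 and RBX1 -0.31. Without a library CUL2 ran from -0.20 to 0.05001, RBX1 -0.0848 to 0.29, TCEB1 -0.39 to 0.15 and TCEB2 -0.17 to 0.13. Between lines, members called were 2 to 6 and genes 3292 to 6735 without a library, the replicate block called 10389 genes, and PBRM1 was 0.0138 with the block and -0.0408 to 0.00708 without a library. The cause of these shifts was not tested. With 2 libraries a group, taken as unpaired, changes under the intervals given were not detectable.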

Other observations

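Between the lines, the bromodomain and neddylation lists passed about as often as all genes did (39.5%). Of 36 other bromodomain genes tested, 11 were lower and 3 higher in MOLT-4 DMSO than in DND-41 DMSO libraries (38.9% called), with a median log2 difference of -0.31, against -0.02 over all genes. PHIP averaged 95.9 ± 2.56 CPM in MOLT-4 DMSO and 173 ± 20.3 CPM in DND-41 DMSO (SD, n = 2 each; log2 difference -0.85, edgeR adjusted p = 0.00350). Among PBAF partners, PHF10 (-0.84) and ARID2 (-0.75) were lower in MOLT-4 and BCL7A (0.54) was higher. Of 23 neddylation regulators 7 were higher and 2 lower in MOLT-4 (39.1% called), with COPS2 at 90.5 ± 2.61 CPM in MOLT-4 DMSO and 47.2 ± 8.29 CPM in DND-41 DMSO (0.94, edgeR adjusted p = 0.00773). Of 14 tested genes of the HIF axis, 3 were higher and 3 lower in MOLT-4 DMSO (42.9% called). BNIP3, a mitophagy receptor induced by HIF, averaged 11.1 ± 0.230 CPM in MOLT-4 DMSO and 0.912 ± 0.0983 CPM in DND-41 DMSO (3.60, edgeR adjusted p = 0.000101). VEGFA, of the same list, went the other way, at 1.49 ± 0.353 CPM in MOLT-4 DMSO and 32.0 ± 19.0 CPM in DND-41 DMSO (-4.42, edgeR adjusted p = 0.00260). As for the members, line and table cannot be told apart here.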
